A study of Mus musculus with 24 samples.

Results

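The HoxA cluster is a row of homeobox genes that direct the pattern of the limb bud, and 10 of its genes were described in hindlimb buds dissected at E10.5 from mouse embryos of 2 genotypes, wild type and Nipbl+/-. They were chosen by name, as Hoxa2, Hoxa3, Hoxa4, Hoxa5, Hoxa6, Hoxa7, Hoxa9, Hoxa10, Hoxa11 and Hoxa13, each with a probe set that the platform's annotation assigns to that gene alone. All 10 were measured, with 1 probe set each, among the 19937 genes analysed. Each of 12 wild type and 12 Nipbl+/- embryos gave RNA from both of its hindlimb buds, which went on a separate array of the type Affymetrix Mouse Gene 1.0 ST. Nipbl encodes the protein that loads cohesin, the ring complex that holds chromosome loops, onto DNA. The Nipbl+/- embryos were heterozygous for the loss of Nipbl in all tissues, the wild type embryos were littermates, and no other allele or agent was used. The log2 intensity of Nipbl was 10.32 or more in each wild type embryo and 9.97 or less in each mutant embryo, so the 12 mutant embryos all lay below the lowest wild type embryo. The values were deposited as log2 intensities, on which a step of 1 is a doubling. Precision is limited by how many arrays there were. The study asked with these arrays whether Hox and other patterning genes change in limb buds with less Nipbl.

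Hox genes encode transcription factors whose order on the chromosome follows the order of their use. Genes at the 3′ end, such as Hoxa2 and Hoxa3, act mainly in the hindbrain and neck, those in the middle, such as Hoxa5 to Hoxa7, in the trunk, and those at the 5′ end in the limb and the posterior body. In the limb, the group 9 and 10 genes serve the upper segment, Hoxa11 the middle segment, and Hoxa13 the autopod, the hand or foot plate, where it is switched on late in the distal bud and acts together with Hoxd13. RNA of a whole bud mixes all of its cells, so fewer expressing cells and less RNA per cell cannot be told apart.

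The dissected tissue carried the markers of a hindlimb. The mean level of Tbx4 and Pitx1, the transcription factors that define hindlimb mesenchyme, lay between 11.52 and 11.78 in wild type buds and between 11.43 and 11.71 in Nipbl+/- buds on the log2 scale. Tbx5, which marks the forelimb, lay between 5.18 and 6.70 in wild type buds and between 5.32 and 6.33 in mutant buds. Each of the 11 marker lists, which also covered ectoderm, endothelium, muscle precursors, blood, macrophages, neural tube, somite and flank, had 0 members called by genotype. Over all genes 0.813% were called, and the lists held 1 to 7 measured genes, so 0 is near that share and does not show equal tissue content. The arrays were not balanced for sex. By Xist, the RNA of the inactive X chromosome, minus Y-linked genes, 8 of 12 wild type and 3 of 12 Nipbl+/- embryos were female, and this score differed by a log2 value of -4.71 (SE 2.13), mutant minus wild type.

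In wild type buds the probe sets of the 5′ genes stood high among all genes. Hoxa9 had a log2 intensity of 10.97 ± 0.088 (SD, n = 12), at percentile 92.0 of the wild type means of all genes. Hoxa10 had 10.47 ± 0.041 (SD, n = 12), at percentile 87.2, and Hoxa11 had 10.30 ± 0.048 (SD, n = 12), at percentile 85.4. Probe sets differ in how well they bind, so these percentiles place each probe set on the array and do not rank the genes by transcript amount. The trunk genes Hoxa5, Hoxa6 and Hoxa7 had wild type means of 9.23, 9.32 and 9.23, between percentiles 70.6 and 71.9. Hoxa13 had a like mean, 9.22 ± 0.47 (SD, n = 12), at percentile 70.5. Hoxa2 and Hoxa3 both had a mean of 7.78, at percentile 51.6, and Hoxa4 one of 8.27, at percentile 57.7.

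The embryos differed little in most HoxA genes and widely in Hoxa13. Among the 12 wild type embryos, the log2 intensity of Hoxa10 ran from 10.41 through a median of 10.46 to 10.54, a range of 1.09-fold. That of Hoxa11 ran from 10.23 through 10.30 to 10.39, a range of 1.12-fold. That of Hoxa13 ran from 8.36 through 9.13 to 9.98, a range of 3.07-fold. Mutant embryos covered a like range of Hoxa13, from 7.83 through 8.72 to 9.34, which is 2.86-fold. Within genotypes, the residual SD of Hoxa13 was 0.47 and stood at percentile 99.7 of all genes, while that of Hoxa10, 0.049, stood at percentile 0.727. Hoxa9 and Hoxa11 had residual SDs at percentiles 5.59 and 10.4. The other 6 genes lay between percentile 18.2, for Hoxa7, and percentile 72.2, for Hoxa3. Neighbouring limb genes of the cluster thus lay at opposite ends of the distribution of spread. This was not particular to HoxA, as Hoxd13 and Hoxd12 stood at percentiles 98.4 and 98.0 and Hoxd10 at 1.58. The percentiles take no account of signal level.

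The spread itself was not shown to depend on genotype. By limma on the absolute deviations from each genotype's median, 0 of the 10 genes and 0 of 19937 genes in all (0%) differed in spread between genotypes at an adjusted p under 0.05. At an unadjusted p under 0.05 there were 829 genes in all and 0 HoxA genes. For Hoxa13 the mean deviation was higher by a log2 value of 0.025 in mutant embryos (adjusted p = 0.996).

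**Figure D1:**
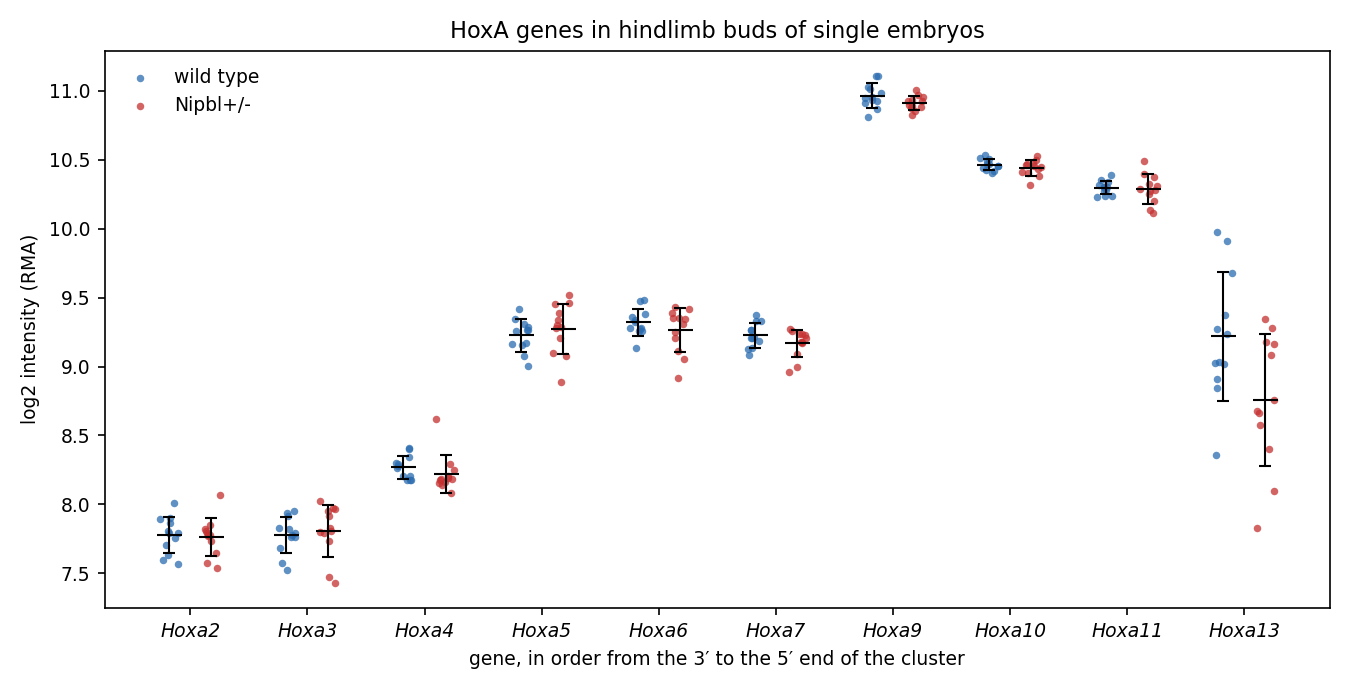
Log2 intensity of the 10 HoxA genes in 12 wild type (blue) and 12 Nipbl+/- (red) embryos, 1 point per embryo, with black bars for the mean and SD; genes stand in order from the 3′ to the 5′ end. Hoxa13 spans 8.36 to 9.98 in wild type and 7.83 to 9.34 in mutant embryos, while Hoxa10 and Hoxa11 stay within narrow bands.

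Hoxa13 had the lowest ratio of mutant to wild type in the cluster, but its difference did not pass the test over all genes, and neither did that of any other HoxA gene. By limma, 162 of 19937 genes (0.813%) differed between genotypes at an adjusted p under 0.05, with 105 lower (0.527%) and 57 higher (0.286%) in Nipbl+/- embryos. Of the HoxA genes, 0 of 10 passed in either direction, and 1, Hoxa13, had an unadjusted p under 0.05, as did 1847 of all genes. With so low a background, a count of 0 among 10 genes is near it. The median log2 difference of the 10 genes was -0.036, beside -0.0049 over all genes, and 8 of 10 differences were below 0, as were 10668 of 19937.

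Hoxa13 averaged 8.76 ± 0.48 (SD, n = 12) in Nipbl+/- buds against 9.22 in wild type, a ratio of 0.725 (log2 difference -0.46, SE 0.17, adjusted p = 0.314 from limma). The genotypes overlapped, for although 10 of the 12 mutant values were under the wild type mean, only 2 fell below the lowest wild type embryo. Its adjusted p ran from 0.00313 to 0.419 over 9 other settings of the fit, and from 0.150 to 0.484 when single embryos were left out. Hoxa13 passed in 1 of these settings, the limma fit with the replicate number as a block (adjusted p = 0.00313). Both genotypes share these numbers in the labels. Hoxa13 went with embryo sex within genotypes (r = -0.50 with the Xist score over 24 embryos). Between female embryos alone the log2 difference was -0.59 (SE 0.39, 8 wild type and 3 mutant), and between male embryos alone it was -0.74 (SE 0.24, 4 wild type and 9 mutant). In males, wild type embryos ran from 9.23 to 9.98 and mutant embryos from 8.10 to 9.34. The difference thus had the same sign within each sex, but the SEs were too wide to tell its size there from -0.46. With sex in the fit it was -0.68 (adjusted p = 0.0644 from limma).

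The other limb genes of the cluster stayed close to their wild type levels. Hoxa9 ran from 10.81 through a median of 10.95 to 11.11 in wild type embryos, and in mutant embryos from 10.83 through 10.91 to 11.01, a ratio of 0.963 (log2 difference -0.054, SE 0.034, adjusted p = 0.703 from limma). Hoxa10 ran from 10.32 through 10.45 to 10.53 in mutant embryos, a ratio of 0.983, with a 95% interval of the log2 difference from -0.084 to 0.034. Hoxa11 ran from 10.11 through 10.29 to 10.49 in mutant embryos, a ratio of 0.993, with an interval from -0.088 to 0.068. The ranges of the genotypes overlapped in all 3 genes. The intervals of Hoxa10 and Hoxa11 leave room for a small change of either sign. They did not reach the difference measured in Hoxa13, -0.46, but the interval of Hoxa13 was itself wide, from -0.83 to -0.10. That of Hoxa9, from -0.13 to 0.017, overlapped the interval of Hoxa13.

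The 3′ and trunk genes gave small differences of either sign. Hoxa7, Hoxa6, Hoxa4 and Hoxa2 had ratios of 0.959, 0.960, 0.967 and 0.991, and Hoxa3 and Hoxa5 ratios of 1.02 and 1.03, with adjusted p from 0.739 to 0.984 in limma. Their 95% intervals on the log2 scale reached no lower than -0.17, in Hoxa6, and no higher than 0.17, in Hoxa5. In Hoxa4, 10 of the 12 mutant values were under the wild type mean, yet its highest value of all, 8.62, was also that of a mutant embryo.

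**Figure D2:**
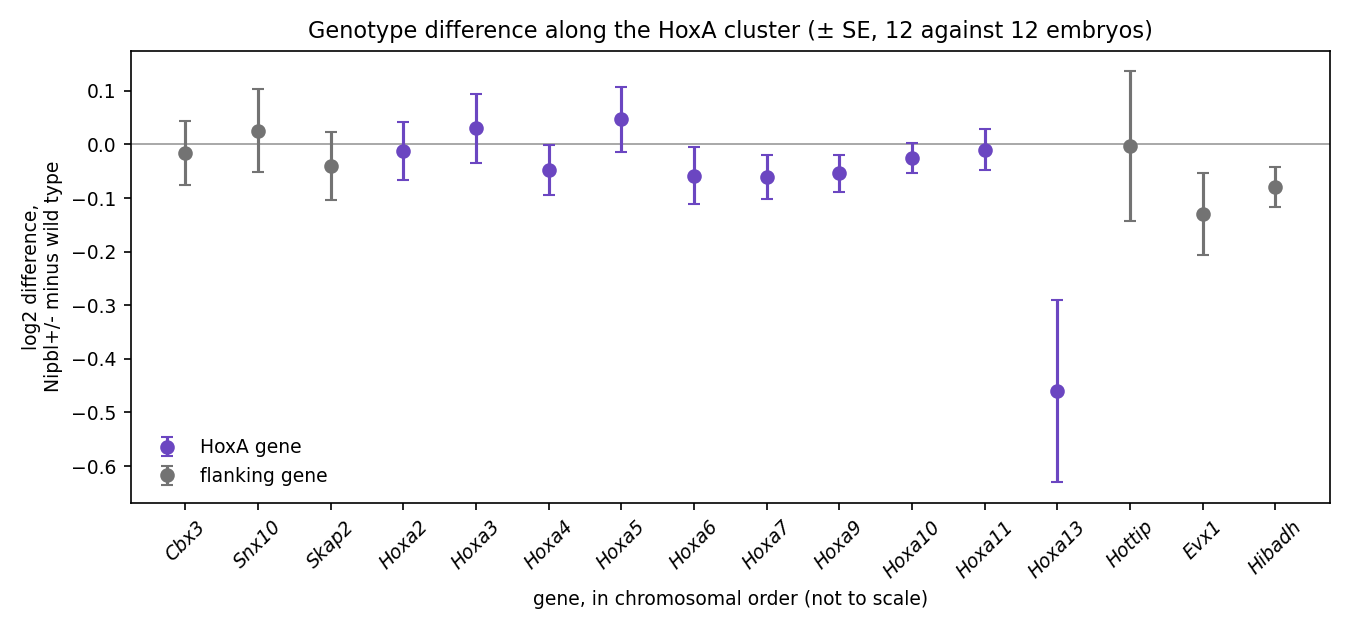
Log2 difference, Nipbl+/- minus wild type, with its SE, for the HoxA genes (purple) and the 3 nearest measured genes on each side (grey), in chromosomal order; distances are not to scale. Hoxa13 lies at -0.46, while its next measured neighbour Hottip lies at -0.0035.

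The step from Hoxa11 to Hoxa13 was tested within embryos. Hoxa13 minus Hoxa11 averaged -1.08 on the log2 scale in wild type and -1.53 in Nipbl+/- embryos, a difference of -0.45 (SE 0.19, permutation p = 0.0244, adjusted over 3 such comparisons p = 0.0732, permutation test, two-sided). Of the 12 mutant values 10 were under the wild type mean, and the difference did not pass after adjustment. With embryo sex as a covariate it was -0.66 (adjusted p = 0.00195, permutation test). There a fitted effect of sex was subtracted before the genotypes were permuted. Sex was not balanced between the genotypes, so this p can be too small. Hoxa13 minus Hoxd13, the autopod gene of the HoxD cluster, differed by 0.15 (SE 0.12, permutation p = 0.220, adjusted p = 0.220). Hoxd13 itself was called lower, from a mean of 9.84 to 9.23 (log2 difference -0.61, SE 0.10, adjusted p = 0.00163 from limma, all 12 mutant values under the wild type mean). The call of Hoxd13 and the missing call of Hoxa13 therefore came with effects that were not shown to differ. Hoxa13 minus Hoxc13 differed by -0.22 (SE 0.17, permutation p = 0.214, adjusted p = 0.220), and by -0.40 with embryo sex as a covariate (adjusted p = 0.0279, permutation test). The limit of the sex covariate given above holds for this p too.

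Hoxa13 varied across embryos together with its neighbour Hottip. Hottip is a noncoding RNA transcribed from the 5′ end of the cluster, in the opposite direction, and is known to help keep the 5′ HoxA genes active. In the annotation used here the starts of Hoxa13 and Hottip lay 1895 bases apart. Over 24 embryos, after the genotype means were removed, r between them was 0.92 (0.98 in wild type and 0.88 in Nipbl+/- embryos), which placed Hottip at rank 14 of 19936 genes by likeness to Hoxa13. Hottip also shared the wide spread, with a residual SD of 0.38 at percentile 99.5. Between genotypes they parted. Hottip ran from 5.86 through a median of 6.59 to 7.49 in wild type embryos, and in mutant embryos from 6.06 through 6.59 to 7.06, a ratio of 0.998 (log2 difference -0.0035, SE 0.14, adjusted p = 0.998 from limma). Within embryos, Hoxa13 minus Hottip averaged 2.58 in wild type and 2.12 in Nipbl+/- embryos, a difference of -0.46 (SE 0.079), and 12 of 12 mutant embryos were under the wild type mean. This pair was chosen after its values were seen, so the difference is a description. Hottip's mean of 6.64 stood at percentile 35.5 of all genes, against 70.5 for Hoxa13, and the part of signal strength in this difference was not tested.

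The promoters of these genes are shown because Hoxa13, Hottip and Hoxd13 varied together across embryos, beside that of Hoxa11, the HoxA gene next to Hoxa13. Each line gives the 250 bases before the annotated start, from RefSeq on GRCm38.p6, 5′ to 3′ on the gene's own strand: Hoxa13 at chr6:52260881-52261130 (minus strand), Hottip at chr6:52262525-52262774 (plus strand), Hoxd13 at chr2:74667975-74668224 (plus strand) and Hoxa11 at chr6:52245811-52246060 (minus strand). Capitals mark matches to the GC box, GGGCGG on either strand, which can overlap.
Hoxa13: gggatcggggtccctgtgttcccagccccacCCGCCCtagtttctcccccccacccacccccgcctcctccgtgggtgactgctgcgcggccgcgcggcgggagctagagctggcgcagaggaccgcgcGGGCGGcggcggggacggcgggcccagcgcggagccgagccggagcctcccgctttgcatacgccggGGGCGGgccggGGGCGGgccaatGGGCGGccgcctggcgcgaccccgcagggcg
Hottip: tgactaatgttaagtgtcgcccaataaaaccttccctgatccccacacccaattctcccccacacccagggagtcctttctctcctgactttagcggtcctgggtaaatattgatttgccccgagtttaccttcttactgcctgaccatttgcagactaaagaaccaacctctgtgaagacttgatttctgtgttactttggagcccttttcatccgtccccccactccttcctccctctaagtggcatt
Hoxd13: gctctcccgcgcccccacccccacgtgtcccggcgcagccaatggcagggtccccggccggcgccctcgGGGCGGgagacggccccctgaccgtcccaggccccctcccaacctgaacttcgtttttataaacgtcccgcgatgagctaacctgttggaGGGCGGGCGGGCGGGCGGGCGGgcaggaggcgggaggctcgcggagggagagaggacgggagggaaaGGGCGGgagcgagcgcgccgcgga
Hoxa11: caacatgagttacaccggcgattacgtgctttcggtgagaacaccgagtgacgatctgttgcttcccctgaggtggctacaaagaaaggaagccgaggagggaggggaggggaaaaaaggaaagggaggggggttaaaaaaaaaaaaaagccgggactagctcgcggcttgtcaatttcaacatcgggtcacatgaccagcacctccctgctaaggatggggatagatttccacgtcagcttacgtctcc
The Hoxa13 stretch holds 5 GC boxes and 80.0% G or C, above 98.8% of 32851 promoters, and that of Hoxd13 holds 7 and 74.4%. That of Hoxa6, whose r with Hoxa13 was -0.17, also holds 5, with 65.2% G or C. Those of Hottip and Hoxa11 hold 0, with 48.4% and 52.0% G or C, near the median of 52.4%. A GC box was found in 32.7% of promoters. The letters CAATAAA, on either strand, were found in 4.2% of promoters and in 1 of these stretches, that of Hottip, where they overlap a CCAAT box (CCAAT, in 33.8% of promoters). TATAAA, in 12.4% of promoters, was found in that of Hoxd13 and not in those of the other 3. Of the HoxA genes, 9 had a promoter in the table used, and Hoxa4 had none. A match of letters is a description and not a site of binding.

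Of 10 genes set against Hoxa13 across embryos, 3 passed, namely Hoxd13, Cyp26b1 and Shh. Over 24 genotype-centred embryos, with 10 relations tested by permutation within genotype (two-sided), Hoxa13 followed Hoxd13 (r = 0.82, rho = 0.83, permutation p = 1.00e-05, the smallest these permutations can give, adjusted p = 5.00e-05). It followed Cyp26b1, the enzyme that clears retinoic acid from the distal bud, as closely (r = 0.84, rho = 0.81, permutation p = 1.00e-05, adjusted p = 5.00e-05). It followed Shh, the signal of the zone of polarizing activity, with r = 0.72 (rho = 0.66, permutation p = 1.20e-04, adjusted p = 4.00e-04). These 3 relations held in each genotype, with r between 0.65 and 0.88, and without the 2 embryos farthest from the median of Hoxa13, at 0.84, 0.78 and 0.61. The genotypes may not be independent of each other here. Between same-numbered embryos of the 2 genotypes r was 0.84 for Hoxa13, 0.77 for Hoxd13, 0.72 for Cyp26b1 and 0.75 for Shh. The permutations within genotype took no account of this, so their p can be too small. The 3 relations did not pass between the 12 differences of same-numbered embryos, the replicate block, where r was 0.41 with Hoxd13 and 0.43 with Cyp26b1 (adjusted p = 0.750 each, permutation test) and turned to -0.15 with Shh (adjusted p = 0.815, permutation test). For Hoxc13, r was 0.43 and did not pass (adjusted p = 0.101, permutation test), though its rho of 0.49 did (adjusted p = 0.0477).

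The relations with Hoxa9, Hoxa10 and Hoxa11 did not pass. The r of Hoxa13 was 0.22 with Hoxa11 (rho = 0.03, permutation p = 0.315), which joins -0.40 in wild type and 0.52 in Nipbl+/- embryos. It was -0.33 with Hoxa10 (rho = -0.31, permutation p = 0.124) and -0.06 with Hoxa9 (rho = -0.08, permutation p = 0.768). It was -0.04 with Meis1 (rho = 0.03, permutation p = 0.862) and -0.35 with Meis2 (rho = -0.30, permutation p = 0.0978), which mark the proximal bud. It was -0.21 with Fgf8, the signal of the apical ectodermal ridge (rho = -0.28, permutation p = 0.349). Adjusted over the 10 relations, these 6 had p from 0.196 to 0.862 by the same permutations.

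**Figure D3:**
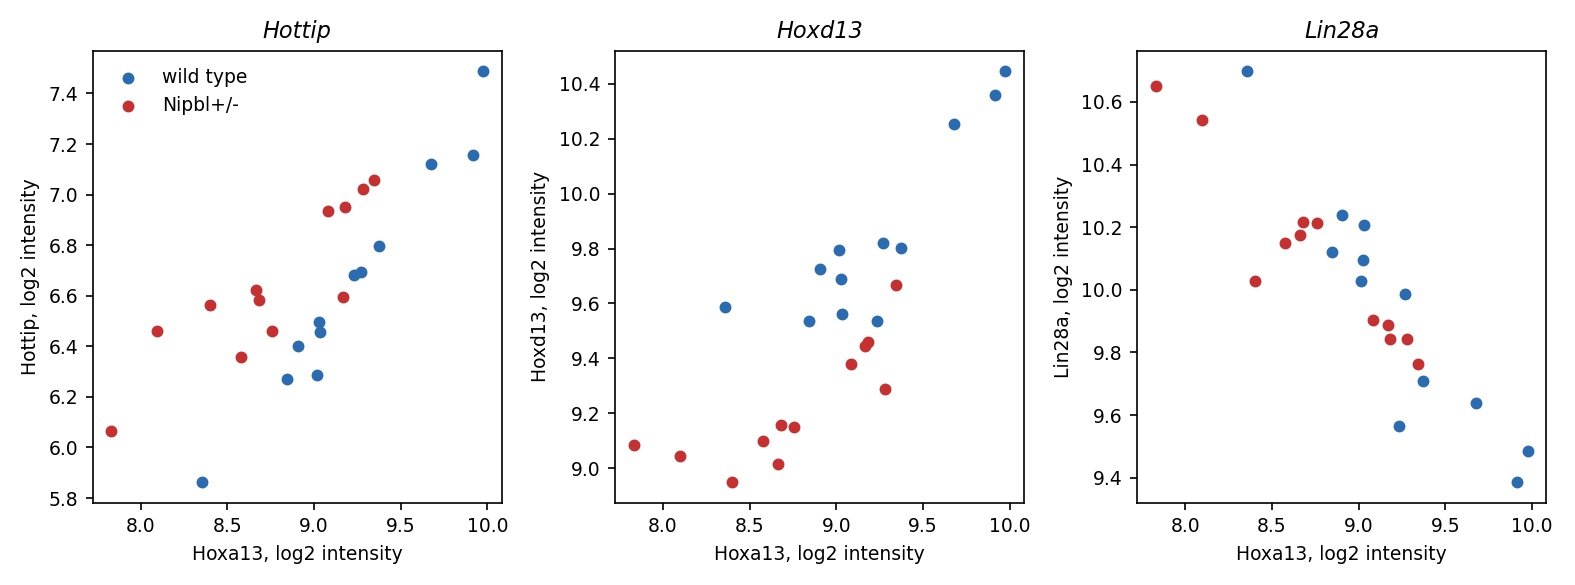
Log2 intensity of Hottip, Hoxd13 and Lin28a against that of Hoxa13, 1 point per embryo, wild type in blue and Nipbl+/- in red. Hottip rises with Hoxa13 on 2 lines set apart by genotype, Hoxd13 rises with Hoxa13 and lies lower in mutant embryos, and Lin28a falls along much the same line in both.

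The genes most like Hoxa13 across embryos were more alike to it than any other HoxA gene. By r over 24 genotype-centred embryos they were Bcl11a at 0.96, Plxdc2 at 0.95, and Mab21l2, Pdgfc and Robo2 at 0.94 each. Bcl11a encodes a transcriptional repressor, Pdgfc a growth factor and Robo2 a receptor for Slit proteins. The lowest r belonged to Ngfr and Lin28a at -0.92, Nr6a1 at -0.91, C1qbp at -0.90 and Mycn at -0.86. Lin28a encodes an RNA-binding protein that blocks let-7 maturation, Nr6a1 an orphan nuclear receptor of the early trunk, and Mycn a transcription factor of growing mesenchyme. None of these 10 genes was called by genotype. Mab21l2 had the lowest ratio among them, 0.747 (log2 difference -0.42, SE 0.14, adjusted p = 0.229 from limma), and Lin28a had 1.13 (adjusted p = 0.759 from limma). In all, 129 of 19936 genes had an r of 0.8 or more with Hoxa13 and 21 an r of -0.8 or less, together 0.752%, while for Hoxa11 these counts were 0 and 3 and for Hoxa10 1 and 0. These r values have no p, since the genes were picked for them.

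Embryos that bear the same replicate number went together in Hoxa13. Over the 12 numbers, r between the wild type and the Nipbl+/- embryo was 0.84 (rho = 0.81, permutation p = 4.30e-04, adjusted over the 10 relations of this kind p = 0.00430, two-sided), and 0.78 without the 2 farthest numbers. The mutant embryo was the lower of its number in 11 of 12 cases, by a log2 value of 0.93 at most, with number 8 as the exception. An r this high was found in 46 of 19937 genes (0.231%), and the median over all genes was -0.03. With embryo sex as a covariate r was 0.65 and did not pass (adjusted p = 0.187, permutation test). The other HoxA genes did not pass, with r from -0.63 for Hoxa6 (adjusted p = 0.106, permutation test) to 0.57 for Hoxa4 (adjusted p = 0.106, permutation test). Of genes that went with Hoxa13, r between same-numbered embryos was 0.89 for Bcl11a, 0.77 for Hoxd13 and 0.65 for Hottip, and for Lin28a, which ran against it, 0.79. The labels do not say what a number stands for, nor do they give the somite stage of single embryos, so the part of litter or stage in this spread was not tested.

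**Figure D4:**
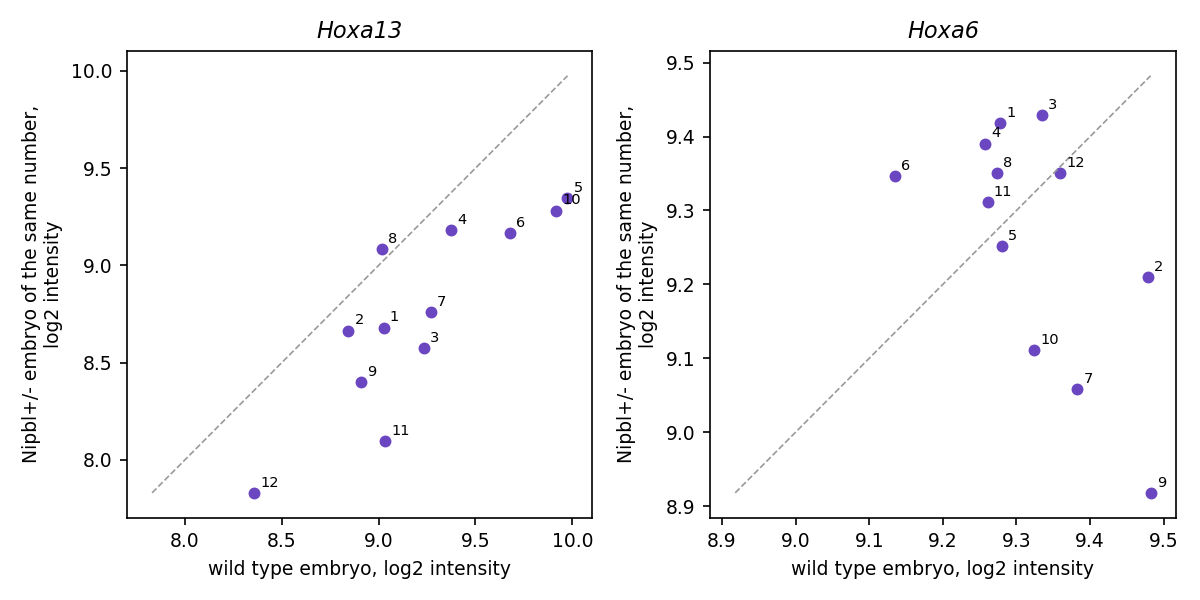
Log2 intensity of Hoxa13 and Hoxa6 in the Nipbl+/- embryo (vertical) against the wild type embryo (horizontal) of the same replicate number, 1 point per number; the dashed line marks equal values. In Hoxa13 11 of 12 points lie below the line and rise together (r = 0.84), and in Hoxa6 r is -0.63.

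Among the HoxA genes themselves, the closest pair was Hoxa5 and Hoxa6, which lie next to each other and serve the trunk. Their r over 24 genotype-centred embryos was 0.85 (0.80 in wild type and 0.86 in mutant embryos), and Hoxa6 was among the 5 genes most like Hoxa5 of the 19936 searched. Hoxa2 and Hoxa3 had an r of 0.70, Hoxa2 and Hoxa9 0.64, and Hoxa3 and Hoxa6 0.61. Of the 45 pairs, 10 had an r above 0.5, and none of these held Hoxa13, whose r with the other 9 genes lay between -0.33 and 0.22. In wild type embryos alone Hoxa13 had an r of -0.69 with Hoxa5, against -0.06 in mutant embryos and -0.29 over all 24. Hoxa4 ran against Hoxa10 (r = -0.52) and Hoxa2 (r = -0.50). Several members followed the width of their array's distribution, as Hoxa9, Hoxa3 and Hoxa2 had r of 0.72, 0.71 and 0.70 with the interquartile range of the array, and Hoxa13 had 0.14. With that range removed, 3 of the 45 pairs were above 0.5, namely Hoxa5 with Hoxa6 at 0.83, Hoxa3 with Hoxa7 at 0.57 and Hoxa5 with Hoxa7 at 0.53, and Hoxa2 with Hoxa3 was at 0.39. Hoxa13 was then at -0.61 with Hoxa2 and -0.51 with Hoxa3. When array medians were set to 0 instead, 21 pairs were above 0.5.

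**Figure D5:**
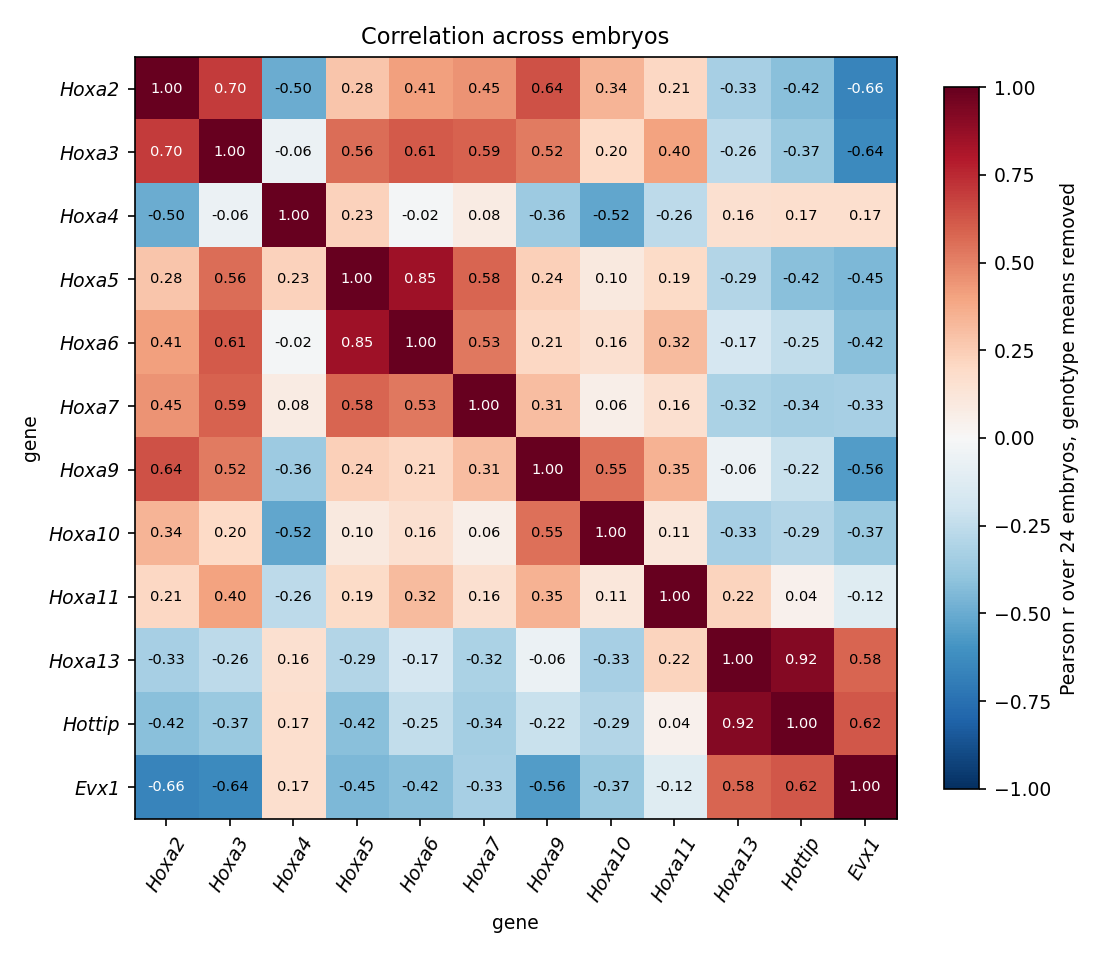
Pearson r between the 10 HoxA genes and their 5′ neighbours Hottip and Evx1 over 24 embryos after the genotype means were removed; red is positive and blue negative. Hoxa5 and Hoxa6 reach 0.85 and Hoxa13 and Hottip 0.92, while Hoxa13 lies between -0.33 and 0.22 with the other HoxA genes.

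For the other HoxA genes the most similar genes of the whole array were Nck1 for Hoxa2 (r = 0.87), Pter for Hoxa3 (r = 0.89), Ap5z1 for Hoxa4 (r = 0.86) and Arhgap39 for Hoxa5 (r = 0.90). They were Hoxa5 for Hoxa6 (r = 0.85), Arl2 for Hoxa7 (r = 0.83), Phax for Hoxa9 (r = 0.89), Ddx10 for Hoxa10 (r = 0.82) and Tbc1d8b for Hoxa11 (r = 0.76). Hoxc9, a gene of the HoxC cluster that is listed below with the posterior Hox genes, also stood among the 5 most like Hoxa6 (r = 0.83). None of the genes named in these sentences was called by genotype.

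The genes that flank the cluster did not pass the test. On the 3′ side, Skap2, Snx10 and Cbx3 had ratios of 0.973, 1.02 and 0.989 (adjusted p from 0.947 to 0.984 in limma). On the 5′ side beyond Hottip, Evx1, a homeobox gene, was at a ratio of 0.912 (limma, adjusted p = 0.653) and Hibadh, a metabolic enzyme, at 0.947 (limma, adjusted p = 0.506). Evx1 went with Hoxa13 at r = 0.58.

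The genes that work with or beside the HoxA proteins were examined as lists. Of 8 measured Hox cofactors, the Pbx, Meis and Pknox homeodomain proteins that bind DNA with Hox proteins, 0 passed in either direction, beside 0.813% of all genes, with a median log2 difference of 0.044. Of these, Pknox2 had a log2 difference of -0.17 (adjusted p = 0.369 from limma) and Meis2 one of 0.091 (adjusted p = 0.487 from limma). Of 12 posterior Hox genes of the other clusters, 2 were lower, 0 were higher and 10 did not pass, with a median of -0.080, beside 0.527% lower and 0.286% higher over all genes. Both that were lower came from the HoxD cluster, Hoxd13 and Hoxd12, which went from 9.42 to 8.99 (log2 difference -0.43, SE 0.10, adjusted p = 0.0362 from limma). Hoxc13 went from 6.50 to 6.26 (log2 difference -0.24, SE 0.071, adjusted p = 0.135 from limma). Hoxd12 went with Hoxa13 at r = 0.88, rank 39 of 19936 genes.

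A list of 10 genes taken as targets of HOXA13 or HOXD13 was also examined. The study's text calls some of them such targets, among them Bmp2, Bmp4 and Epha7, but does not name Epha4. It also calls Enpp2 one, which was on the list but was not analysed here. Of the 9 measured genes, 2 were lower, 0 were higher and 7 did not pass, with a median log2 difference of -0.18. Over all genes 0.527% were lower and 0.286% higher. The list was drawn up with results of these samples known and is not independent evidence of its direction. Epha4, a receptor that guides cells and axons, went from 10.71 to 10.37 (log2 difference -0.33, SE 0.054, adjusted p = 0.00130 from limma, all 12 mutant values under the wild type mean). Bmp2, a signal that acts downstream of Shh in the posterior bud, went from 7.46 to 7.11 (log2 difference -0.34, SE 0.078, adjusted p = 0.0268 from limma). Bmp4 missed the threshold with a log2 difference of -0.15 (SE 0.037, adjusted p = 0.0557 from limma), and Epha7 with one of -0.28 (SE 0.078, adjusted p = 0.0998 from limma). Of 21 signals and transcription factors of the distal and proximal bud, 1 was lower, Shh, and 1 was higher, beside 0.527% and 0.286% over all genes. The higher one was Lhx9, with a log2 difference of 0.16 (SE 0.031, adjusted p = 0.00698 from limma). Cyp26b1 had a log2 difference of -0.34 and an adjusted p of 0.0526 from limma. The median of that list was 5.1e-04.

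Some of the marker lists moved with Hoxa13 across embryos. Over 24 genotype-centred embryos, the mean level of the 2 hindlimb markers had an r of 0.58 with Hoxa13, that of 4 somite markers 0.59 and that of 4 flank and body wall markers -0.46, while that of 5 limb mesenchyme markers had -0.16. The remaining lists lay between -0.19, as for blood, and 0.31, for muscle precursors. The mean level of the somite markers lay between 7.90 and 8.38 in wild type buds and between 7.77 and 8.13 in mutant buds, and that of the flank markers between 7.72 and 8.13 and between 7.69 and 8.12. With Hoxa5, by contrast, somite markers had an r of -0.41. The part of tissue content in the spread of Hoxa13 was not tested.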

How the data were processed

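Hindlimb bud RNA of 12 wild type and 12 Nipbl+/- embryos was measured on 24 arrays, which hold whole-transcript probes and have no read depth. The authors ran the array files through GenePattern. RMA is the tool in the submitters' processing notes, with no version given, and the deposited log2 intensities are thus background-corrected, normalized between arrays and summarised per probe set. Such normalization can hide a change shared by most genes. Of 28159 probe sets, 21640 had 1 gene symbol, 1321 several and 5198 none in the platform's annotation, which can be old; symbols were updated through Entrez ID for 21553. Probe sets without a single symbol were not named. The brightest probe set of each gene was used, which gave 19937 genes. No array was a copy of another.

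Genotypes were compared with limma 3.58.1 (lmFit, eBayes) in R 4.3.3, and a gene was called where p, adjusted over all genes by Benjamini-Hochberg, was under 0.05. Spread was tested with limma on absolute deviations from the genotype median. Correlations and differences between genes used 100000 permutations. Intervals are 95% and use the standard error of the fit. Scripts were tested on simulated data. P-values set a difference or a correlation against the variation between embryos. Those of limma without the replicate block take the embryos as independent. The 10 genes and all lists were chosen with earlier results of these data known. The text names all 10 HoxA genes, the 5 genes most like each (of which the text gives the first for genes other than Hoxa13, and members of Hox clusters), the 5 least like Hoxa13, 3 neighbours on each side, called members of the lists and at most 4 others with the smallest p, and the 10 relations of Hoxa13. The alternatives were the mean of probe sets, genes above the first quartile of intensity, a trended and robust variance, array weights, the replicate number, embryo sex, array medians, the width of the array's distribution, a t-test on linear values and leaving out single embryos. Promoters came from RefSeq on GRCm38.p6; no build is named for the arrays. Permutations ran in Python 3.11.15 and plots were made in matplotlib 3.10.9.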

Additional observations from a re-analysis of the deposited data

How the results depend on the processing

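Of the 10 HoxA genes, 0 were called by genotype in limma and under each of the alternatives, leaving out any single embryo included (0 to 0), except with the replicate number as a block, where 1, Hoxa13, passed (log2 difference -0.46, adjusted p = 0.00313). Over all genes 162 were called, from 113 to 197 when an embryo was left out, 281 with array weights, 169 with the replicate block, 104 with array medians set to 0 and 489 with the interquartile range of the array as a covariate. Differences near 0 changed sign, none of them called. Hoxa11 was at 0.0022 with array weights and 0.0021 with medians set to 0, and from -0.028 to 0.0064 when an embryo was left out. Hoxa2 was at 0.013 with embryo sex, and from -0.041 to 0.0080 when an embryo was left out. The difference in spread was -0.0054 for Hoxa7 and -0.012 for Hoxa10 with medians set to 0. The cause of these shifts was not tested.

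The labels give both genotypes the numbers 1 to 12 without saying what they mark. Over all genes, the correlation of same-numbered embryos' deviations ran from -0.35 to 0.28, with 5 of 12 pairs over 0.1. Only 3 wild type and 1 mutant embryos correlated best with their own number, so the main fit did not pair the samples. That check covers all genes together and cannot decide whether the numbers pair the embryos in single genes. In Hoxa13, r between same-numbered embryos was 0.84. With the replicate block, which correlates the 12 differences between same-numbered embryos, 0 of 10 relations of Hoxa13 passed in place of 3: r was 0.41 with Hoxd13, 0.43 with Cyp26b1 and -0.15 with Shh, and, of those that had not passed, -0.25 with Hoxa11, 0.04 with Hoxa9, -0.06 with Hoxc13, 0.30 with Meis1 and 0.23 with Meis2. With medians set to 0, r was 0.06 with Hoxa9 and 0.05 with Meis1, and without the 2 farthest embryos 0.11 with Meis1. Of the 3 differences between genes, 0 passed, against 1 with the replicate block (Hoxa13 minus Hoxa11, -0.45, adjusted p = 0.00586 by exact sign flips) and 2 with embryo sex. The p with embryo sex can be too small, since sex was subtracted before the permutations. The same-number correlation passed in 1 HoxA gene, in 2 with medians set to 0 (Hoxa6 at -0.82), where Hoxa7 was at -0.23, Hoxa9 at -0.19 and Hoxa10 at -0.01, and in 0 with embryo sex. 2 alternatives were chosen after seeing the data, the interquartile range of the array for the correlations and differences between genes, and medians set to 0 for the 45 pairs, of which 10, 3 and 21 had an r above 0.5 as deposited, with the range removed and with medians set to 0.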

Other observations

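Other transcripts of the HoxA cluster did not pass the test. Mir196b, the microRNA gene between Hoxa9 and Hoxa10, ran from 7.15 through a median of 7.56 to 7.92 in wild type and from 7.25 through 7.59 to 7.95 in Nipbl+/- embryos, with a ratio of 0.999 (adjusted p = 0.998 from limma). Hoxaas2, an antisense RNA of the cluster, ran from 6.22 through 6.44 to 6.65 in wild type and from 6.31 through 6.42 to 6.69 in mutant embryos, with a log2 difference of 0.0058 (adjusted p = 0.993 from limma). Hoxa11os, Hotairm1, Hoxaas3 and Halr1 were not analysed here.

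Of 15 measured Polycomb and trithorax regulators, the chromatin proteins that keep Hox genes off or on, 0 passed in either direction (median log2 difference -7.2e-05), and 3 had an unadjusted p under 0.05 in limma. Over all 19937 genes 162 passed and 1847 had an unadjusted p under 0.05. The 3 regulators were Eed, Men1 and Kdm6a. Eed, a Polycomb subunit, had a log2 difference of 0.095 (adjusted p = 0.439 from limma). Men1, a subunit of trithorax complexes, had one of -0.099 (adjusted p = 0.449 from limma). Kdm6a, an X-linked histone demethylase, had one of -0.25 (adjusted p = 0.489 from limma, and up to 0.995 in other settings of the fit). More wild type than mutant embryos were female, and in this difference sex was not told apart from genotype.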
